A study of Mus musculus with 20 samples.

Results

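The solute carriers of the plasma membrane and of intracellular organelles were followed in bone marrow-derived macrophages (BMDMs) of mice. Members were the rows of the count table whose gene symbol starts with Slc, a family number and a letter, and that had at least 10 counts in at least 3 of the 20 libraries. All mitochondrial carriers of the Slc25a family were left out, as were 9 further genes (Slc2a1, Slc2a3, Slc2a6, Slc16a1, Slc16a3, Slc7a2, Slc7a11, Slc8b1 and Slc11a1). Of 21963 rows, 371 carried such a symbol, 315 of these remained as candidates and 153, from 45 families, passed the count limit. The members were thus chosen by their counts in these libraries, whatever the group. Just inside the limit lay Slc39a5 and Slc45a3, each with 10 counts in 3 libraries, and Slc6a19 in 4 libraries, while Slc18b1, Slc1a1, Slc22a12, Slc22a23 and Slc35g2, with 10 counts in 2 libraries, lay just outside it. Slc45a3 passed through 3 of the Mcu-/- libraries, in which it reached 14 to 24 counts. Slc6a19 also passed through Mcu-/- libraries only, at 10 to 19 counts. In 133 members every library had at least 10 counts, 7 members had a mean under 10 counts, and 152 members passed the filter of the test, all but Slc39a5.

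Solute carriers move ions, nutrients, metals and metabolites across membranes, each family with its own substrates and its own membrane. In macrophages they are best known for feeding amino acids and nucleosides to an activated cell, for withholding iron, zinc and copper from ingested microbes, and for emptying the phagosome and lysosome of digested material. By substrate the members fell into 27 carriers of amino acids and peptides (with creatine and taurine), 27 of metals and heme, 27 of inorganic ions, 20 of the Slc35 family, most of which bring nucleotide sugars into the Golgi, 20 of organic acids and organic ions, 11 of sugars and sugar phosphates, 7 of vitamins, 6 of lipids and choline and 5 of nucleosides. The other 3 symbols name proteins that are not carriers (Slc9a3r1, Slc4a1ap and Slc7a6os).

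The BMDMs were grown from marrow of wild-type (WT) mice or of mice titled KO, called Mcu-/- in the study and here. Mcu encodes the pore of the mitochondrial calcium uniporter. According to the study the deletion is of a floxed Mcu allele by Cx3cr1-cre, so that it acts in cells that express Cx3cr1. Mice were 15 to 25 weeks old and of either sex. Cells were left untreated or exposed for 3 h to zymosan, a yeast cell wall particle, and 1 WT group also received BAPTA-AM, a calcium chelator that enters cells. The dose of the chelator is not in the labels, and the qPCR methods of the study name 10 µM and 2 zymosan particles per cell. There were 4 libraries of untreated WT, 5 of WT with zymosan, 4 of WT with zymosan and BAPTA-AM, 4 of untreated Mcu-/- and 3 of Mcu-/- with zymosan. The labels call them biological replicates. The columns of the last group are numbered 3, 4 and 5, which does not match the numbering of its labels, so its libraries are named by column. Total counts were 14.42 to 23.95 M per library.

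Mcu was lower in Mcu-/- than in WT libraries without overlap, at 2.63 to 4.05 CPM (counts per M counts of the library) against 6.1 to 9.55 CPM. All CPM given here refer to the library size after TMM scaling, and levels of different genes are compared only per kilobase of exon. Of 10 macrophage markers 9 had 1 row in the table (Itgam, with 2 rows, was not analysed here), each with at least 10 counts in a library, and their summed level was 13000 to 13400 CPM in untreated WT, 15600 to 15900 CPM in WT with zymosan, 13900 to 14100 CPM with BAPTA-AM, 8920 to 14500 CPM in untreated Mcu-/- and 10700 to 11100 CPM in Mcu-/- with zymosan. Markers of neutrophils summed to at most 1.4 CPM and those of mast cells and basophils to at most 1.3 CPM in every library. Lymphocyte markers summed to 12.4 to 55.4 CPM, nearly all of it Cd79b, and Cd3d, Cd3e, Cd3g and Ncr1 averaged at most 0.0213 CPM in each group. Dendritic cell markers summed to at most 1.24 CPM untreated and to 5.95 to 12.1 CPM with zymosan, mostly Xcr1. Fibroblast and endothelial markers summed to 37.3 to 72.4 CPM. Of these Pecam1 averaged 41.9 CPM in WT zymosan and 15.4 CPM in Mcu-/- zymosan, Col1a1 2.03 and 21.7 CPM, and Col1a2 2.19 and 23.2 CPM. Their part in the results on the members was not tested. In bulk RNA fewer cells of a type and less RNA per cell cannot be told apart.

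One library stands apart, the untreated Mcu-/- replicate 4. For 132 of the 152 members tested, 85 above and 47 below, its level lay outside the range of the other 7 untreated libraries, a share of 86.8%, where replicate 3 of the same group lay outside the range of the other 6 for 25% of members. The same share over all 11707 genes was 77.8% for replicate 4. It also enters the common estimate of the spread: the biological coefficient of variation was 12.4% with it and 3.56% without it. Results are therefore given with this library, and the counts over members and classes also without it. Single members were called more often without it, and this is given only for some of them.

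Counted per kilobase, the dicarboxylate carrier Slc13a3, which takes up succinate and related acids, was the most abundant member in untreated WT at 894 CPM per kb. It was followed by Slc15a3, a lysosomal carrier of histidine and small peptides, at 102, the taurine carrier Slc6a6 at 98.9, the heme carrier Slc48a1 at 70.2, the amino acid exchanger subunit Slc3a2 at 57.5 and Slc7a8 at 54.0 CPM per kb. In Mcu-/- cells with zymosan the order had changed, with Slc3a2 at 255, Slc15a3 at 231, Slc13a3 at 202, Slc6a6 at 124 and Slc7a8 at 121 CPM per kb.

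The response of WT cells to zymosan was the first comparison. Of 152 members tested 45 rose and 56 fell (edgeR quasi-likelihood test, Benjamini-Hochberg adjusted p under 0.05), where 32.4% of all genes tested rose and 36.8% fell. The libraries of both groups did not overlap for 102 members, against 69.5% of all genes. Without the untreated Mcu-/- replicate 4 the counts were 54 and 65, against 37.2% and 41.3% of all genes. Among the 146 members with a mean of at least 10 counts, 43 rose and 53 fell. Of the members that rose, Slc32a1 and Slc39a2 (metal class) passed the count limit through zymosan libraries alone. Of those that fell, Slc6a13, Slc16a5 and Slc27a3 passed it through untreated libraries alone. The limit favours the direction of these calls. As a whole the members thus moved about as often as other genes, and the classes differed in direction. Of 26 metal carriers 12 rose and 4 fell (median log2 difference 0.25), and of 27 amino acid carriers 13 rose and 5 fell (median 0.22). These counts were 15 and 5 of 26 and 16 and 6 of 27 without the untreated Mcu-/- replicate 4. Of 20 Slc35 members 1 rose and 15 fell (median -0.38), and of 20 carriers of organic ions 2 rose and 10 fell (median -0.25), which without that library became 1 and 15 of 20 and 4 and 11 of 20. The median over all genes was -0.04. TMM factors were 1.22 to 1.24 in untreated WT and 0.865 to 0.881 in WT with zymosan. Scaled by library totals instead, all genes shifted to a median of -0.54, 23 members rose and 97 fell, against 15.7% and 68.5% of all genes, and the medians of the metal and amino acid classes became -0.24 and -0.27. Relative to the median of all genes, the metal class stood 0.30 higher under DESeq2 size factors and under library totals. The amino acid class stood 0.27 higher and the Slc35 class 0.34 lower under both. A change of scaling moves all genes nearly alike, so these distances could hardly change and are no separate check of direction.

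**Figure D1:**
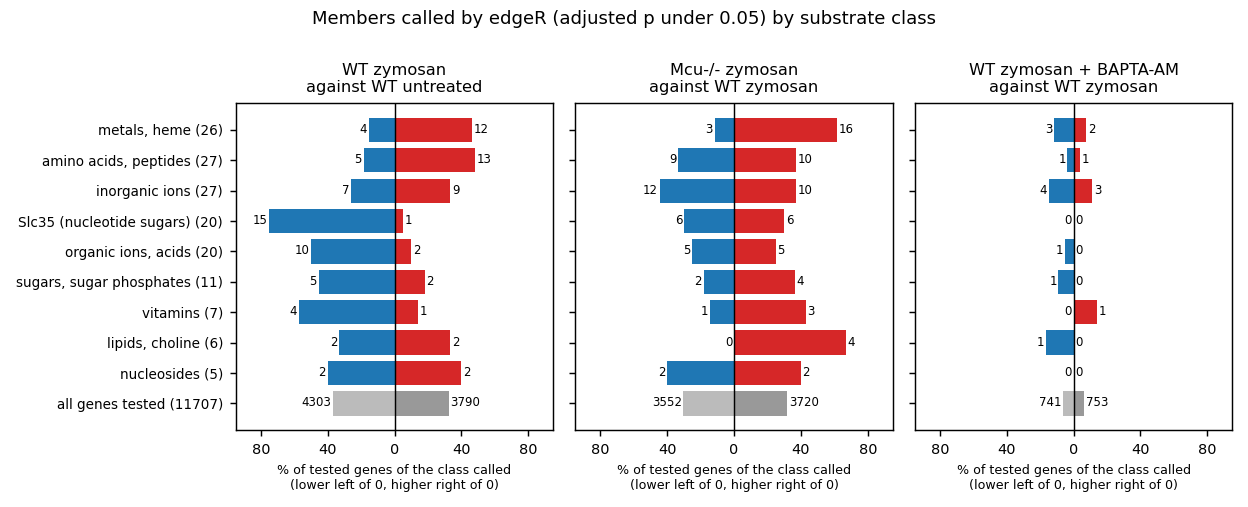
Share of the tested genes of each substrate class that were called higher (right of 0) or lower (left of 0) in 3 comparisons, in percent, with the number of genes beside each bar and the number tested in parentheses. With zymosan in WT 15 of 20 Slc35 members lay on the lower side, and in Mcu-/- with zymosan 16 of 26 metal carriers lay on the higher side. The grey bars give all 11707 genes.

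Zinc leaves the cytosol through carriers of the Slc30 family and enters it through the Slc39 family. Slc30a1, the zinc exporter of the plasma membrane (chr1:191906767-191913247, mm10), stood at 54.1, 57.5, 62.3 and 54.2 CPM in untreated WT and at 267, 259, 252, 235 and 238 CPM in WT with zymosan. The groups were far apart, a log2 rise of 2.13 ± 0.07 (SE; adjusted p = 1.26e-15). Slc30a4, a zinc carrier of endosomes and lysosomes, rose from 3.12 ± 0.261 CPM (SD, n = 4) to 11.4 ± 0.592 CPM (SD, n = 5). Slc30a6 (0.76) and Slc30a7 (0.41), both of the Golgi side of the cell, rose on the log2 scale as well, while Slc30a5 fell by 0.82.

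The promoters of Slc30a1 and Slc30a4, the zinc exporters with the largest rises, are shown because both hold cores of the metal response element, the sequence that the zinc sensor MTF1 is known to bind. The windows run from 250 bases before to 50 after the annotated start (RefSeq, GRCm38.p6), and capitals mark the core TGCACNC or TGCGCNC on either strand.
Slc30a1, chr1:191906531-191906830, plus strand: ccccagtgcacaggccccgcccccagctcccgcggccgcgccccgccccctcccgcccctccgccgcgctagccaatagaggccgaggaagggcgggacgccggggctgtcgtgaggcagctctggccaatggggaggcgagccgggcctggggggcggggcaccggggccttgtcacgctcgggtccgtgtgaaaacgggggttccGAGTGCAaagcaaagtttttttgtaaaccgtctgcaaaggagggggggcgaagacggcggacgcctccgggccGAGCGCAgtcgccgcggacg
Slc30a4, chr2:122702614-122702913, minus strand: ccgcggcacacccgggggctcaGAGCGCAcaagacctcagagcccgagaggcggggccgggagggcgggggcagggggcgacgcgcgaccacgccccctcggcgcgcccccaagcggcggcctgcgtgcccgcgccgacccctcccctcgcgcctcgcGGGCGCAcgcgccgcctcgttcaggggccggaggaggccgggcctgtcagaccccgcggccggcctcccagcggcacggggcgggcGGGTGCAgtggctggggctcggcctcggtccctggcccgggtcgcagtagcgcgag
The first window holds 2 cores and the second 3. In the same family the windows of Slc30a6 and Slc30a7, which also rose, held 0 cores. That of Slc30a5, which fell, held 1. A window was found for 118 of the 153 members, and 47 of these (39.8%) held at least 1 core, among them 11 of 21 metal carriers (52.4%), against 25.6% of 27025 genes. The share varied between the other classes. It was 47.1% of Slc35 members, 40% each of ion and sugar carriers and 50% each of the 6 lipid and 6 vitamin carriers. It was 36.4% of carriers of organic ions, 15% of amino acid carriers and 0 of 4 nucleoside carriers. All 3 proteins that are not carriers held a core. The windows of the members were also richer in G and C, with a median of 62% against 52.7% over all genes, and the part of base composition in the share was not tested. The E-box CACGTG was in 11.9% of member windows and in 7.24% of all. A match of letters does not show that a factor binds there.

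Carriers of zinc import moved in both directions. Slc39a1 rose from 99.5 ± 3.73 CPM (SD, n = 4) to 199 ± 7.57 CPM (SD, n = 5), a log2 rise of 1.00 ± 0.06 (SE). Slc39a14, which also carries iron not bound to transferrin, rose by 0.63 ± 0.12 (SE; adjusted p = 9.79e-05). Slc39a3, Slc39a9 and Slc39a13 fell by 0.71, 0.68 and 0.32. Slc39a8 was at 20.9 ± 1.13 CPM (SD, n = 4) and 21.8 ± 1.58 CPM (SD, n = 5), a difference of 0.06 ± 0.07 (SE).

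Slc11a2 (DMT1), which brings iron out of endosomes, was at 95.4, 101, 99.4 and 92.8 CPM untreated and at 347, 330, 334, 327 and 318 CPM with zymosan, and no library of one group reached the other (log2 rise 1.77 ± 0.11, SE; adjusted p = 4.19e-11). The copper carriers Slc31a1 and Slc31a2 rose by 0.99 and 1.26. Slc40a1 (ferroportin), the iron exporter, was at 7.36 to 8.64 CPM untreated and 8.93 to 11.3 CPM with zymosan, a log2 difference of 0.39 ± 0.58 (SE; adjusted p = 0.564). Without the untreated Mcu-/- replicate 4, whose Slc40a1 level widens the spread of this gene, the same difference was called (0.40, adjusted p = 1.84e-05). Slc48a1, which carries heme out of the phagolysosome, differed by -0.09 ± 0.10 (SE).

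**Figure D2:**
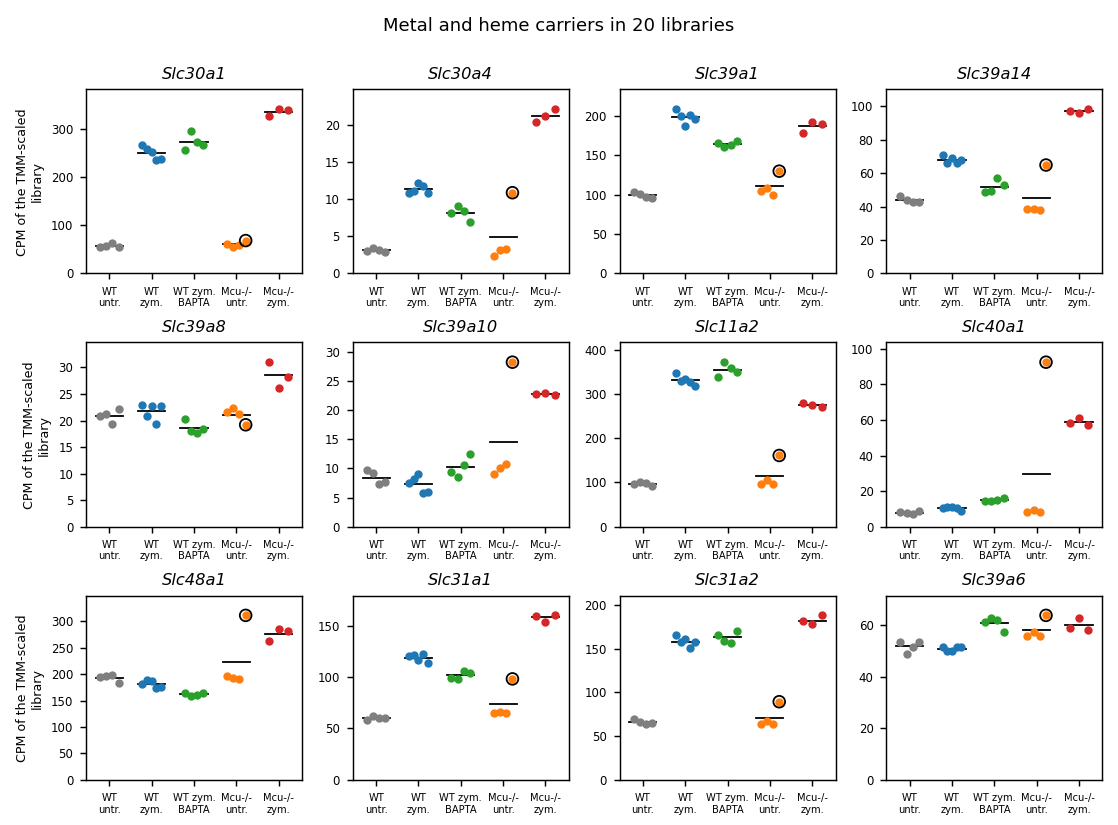
CPM of 12 metal and heme carriers in the 20 libraries (1 point each, black lines at group means, circle around the untreated Mcu-/- replicate 4). Slc30a1 is between 235 and 267 CPM in all WT zymosan libraries and at most 68.2 CPM in all untreated ones, and in Slc40a1 the circled library (92.5 CPM) lies above all the others.

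Several carriers that take up amino acids at the plasma membrane rose. Slc38a1, a sodium-coupled glutamine carrier, went from 85.9, 87.4, 89.8 and 86.4 CPM to 399, 386, 397, 361 and 341 CPM (log2 rise 2.11 ± 0.05, SE; adjusted p = 4.76e-18). Slc7a1, which takes up arginine and lysine, rose from 102 ± 6.51 to 225 ± 8.4 CPM. Slc3a2, the heavy chain that Slc7a5 and its relatives need to reach the membrane, rose from 203 ± 8.06 to 459 ± 17.4 CPM (SD, n = 4 and 5). Of its light chains Slc7a5 (large neutral amino acids) rose by 0.47 and Slc7a7 (cationic amino acids) by 0.66, while Slc7a6 fell by 0.46 and Slc7a8 differed by 0.14 ± 0.16 (SE). Slc1a5 and Slc38a2, both carriers of glutamine and other neutral amino acids, rose by 0.47 and 0.61, although the Slc1a5 level of WT zymosan replicate 4 (4.93 CPM) lay below all untreated WT libraries. With library totals the differences of Slc7a5 and Slc1a5 were each -0.02.

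Carriers that empty lysosomes split. Slc15a3 rose from 562 ± 25 CPM (SD, n = 4) to 1330 ± 38.5 CPM (SD, n = 5), whereas Slc15a4, its close relative on the same membranes, was at 28.3 ± 0.825 and 29 ± 1.87 CPM, a difference of 0.04 ± 0.13 (SE). Slc36a1, which returns small neutral amino acids from the lysosome, had the largest fall of a member with at least 5 CPM. It was at 41.9, 40.3, 40.2 and 40 CPM untreated and at 7.4, 7.5, 9.54, 7.39 and 9.2 CPM with zymosan, with group means of 40.6 and 8.21 CPM and no overlap (log2 difference -2.31 ± 0.09, SE; adjusted p = 2.69e-14). Slc38a9, the lysosomal arginine sensor, fell by 0.50, and Slc43a2, a facilitator of large neutral amino acids, fell from 340 ± 9.93 to 119 ± 7.17 CPM. Slc15a2, a peptide carrier that also takes up bacterial muropeptides, rose from 0.785 to 1.24 CPM to 5.25 to 7.54 CPM.

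**Figure D3:**
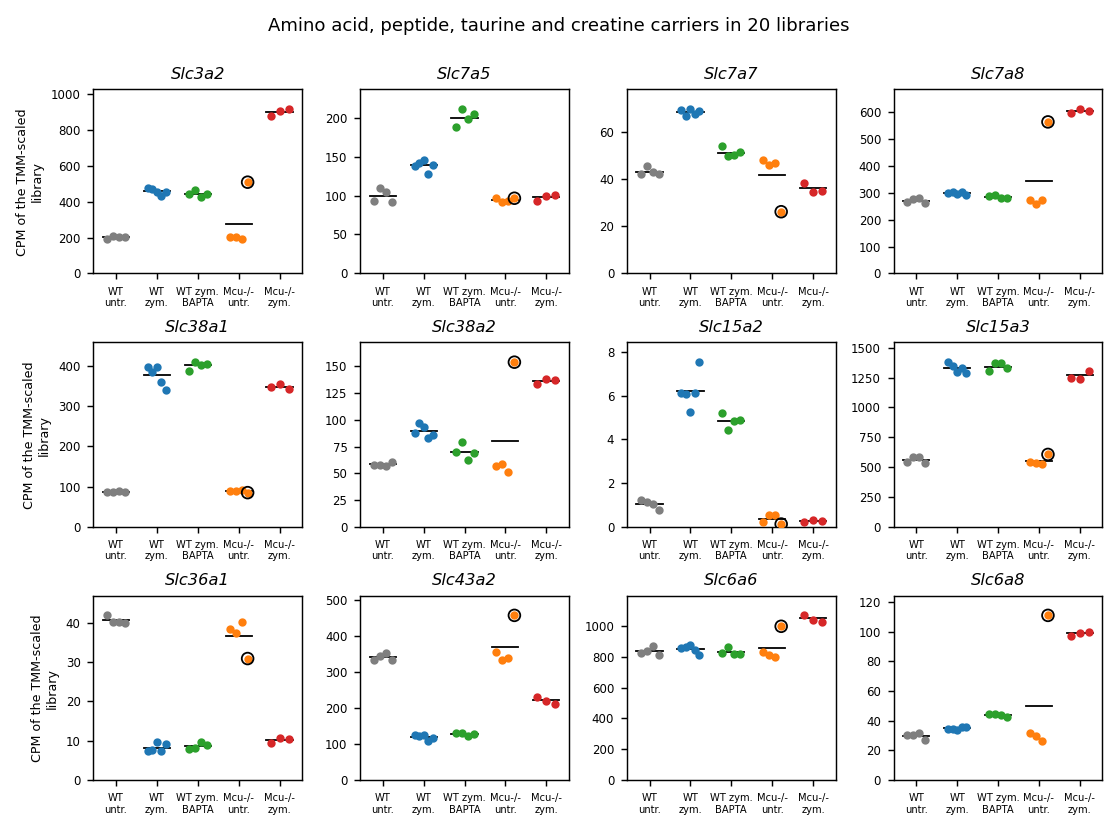
CPM of 12 carriers of amino acids, peptides, taurine and creatine in the 20 libraries (1 point each, black lines at group means, circle around the untreated Mcu-/- replicate 4). Slc38a1 is at 341 to 399 CPM in WT with zymosan against 85.9 to 89.8 CPM untreated, Slc36a1 runs the other way, and Slc15a2 is at most 0.548 CPM in every Mcu-/- library.

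Of 27 ion carriers 9 rose and 7 fell (median -0.04), against 32.4% and 36.8% of all genes. Without the untreated Mcu-/- replicate 4 the counts were 9 and 9, against 37.2% and 41.3%. Slc12a9, an orphan of the cation-chloride cotransporter family, rose from 30.9 ± 0.898 to 122 ± 6.08 CPM, the sodium bicarbonate carrier Slc4a7 from 75.0 ± 2.32 to 171 ± 6.03 CPM, and the phosphate carriers Slc20a1 and Slc20a2 by 0.24 and 0.86 on the log2 scale. The chloride cotransporter Slc12a2 fell by 0.31 and the anion exchanger Slc26a11 by 1.34. Under library totals the sign of Slc20a1 turned (-0.25).

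In the Slc35 family Slc35c1, which carries GDP-fucose into the Golgi, fell from 26.4 ± 0.998 to 7.74 ± 0.352 CPM (SD, n = 4 and 5), a log2 difference of -1.77 ± 0.06 (SE; adjusted p = 4.6e-15). Slc35a1, which carries CMP-sialic acid, fell by 0.58, and the member that rose was Slc35a3, a carrier of UDP-N-acetylglucosamine, by 0.12. Slc35g1, known as a partner of the calcium sensor STIM1 rather than for a sugar, fell from 130 ± 6.05 to 75.9 ± 3.27 CPM.

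Of 7 vitamin carriers 1 rose and 4 fell, against 32.4% and 36.8% of all genes. Without the untreated Mcu-/- replicate 4 the counts were 1 and 5, against 37.2% and 41.3%. The vitamin C carrier Slc23a2 rose from 110, 114, 115 and 113 CPM to 590, 599, 594, 573 and 567 CPM (log2 rise 2.37 ± 0.16, SE; adjusted p = 8.86e-11). The multivitamin carrier Slc5a6, the thiamine carrier Slc19a2 and the folate carrier Slc46a1 fell by 1.43, 0.92 and 0.83. The choline carrier Slc44a1 rose from 45.3 ± 2.53 to 143 ± 6.02 CPM and the concentrative nucleoside carrier Slc28a2 from 41.2 ± 1.14 to 130 ± 4.98 CPM, and the lysosomal nucleoside carrier Slc29a3 fell by 0.39. Slc16a10, a carrier of aromatic amino acids and thyroid hormone, rose by 1.49, and Slc16a13, a monocarboxylate carrier, fell by 1.32. Slc45a4, placed with the sugar carriers by its family, fell from 122 ± 6.27 to 33.1 ± 2.36 CPM, and the sugar phosphate carrier Slc37a2 fell from 170 ± 5.83 to 93.8 ± 3.39 CPM.

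The next comparison was of Mcu-/- with WT cells, both with zymosan. Untreated Mcu-/- replicates 1 to 3 lay on the same side for 50, 51 and 56 of the 102 members called in it. Replicate 4 did so for 92. Whether the loss of Mcu accounts for the differences that follow was not tested. In Mcu-/- cells 61 of the 152 members had a higher level and 41 a lower one, where 31.8% of all genes were higher and 30.3% lower, and the libraries of both groups did not overlap for 103 members, against 64.0% of all genes. Without the untreated Mcu-/- replicate 4 the counts were 67 and 47, against 36.4% and 33.7% of all genes. Among the 146 members with a mean of at least 10 counts, 59 were higher and 40 lower. Slc6a19 and Slc45a3, counted as higher, passed the count limit only through Mcu-/- libraries. Slc32a1, counted as lower, passed it only through WT libraries. The limit favours the direction of these calls. The median log2 difference was 0.12 over members and 0.02 over all genes. Metal carriers were higher in 16 of 26 and lower in 3 (median 0.31), and lipid carriers were higher in 4 of 6 and lower in 0 (median 0.89). Amino acid carriers (10 higher and 9 lower of 27), ion carriers (10 and 12 of 27) and Slc35 members (6 and 6 of 20) went both ways. The counts without the untreated Mcu-/- replicate 4 were 17 and 5 for metal, 4 and 0 for lipid, 13 and 11 for amino acid and 10 and 13 for ion carriers, and 6 and 6 for Slc35 members. In the same libraries the macrophage markers moved both ways. In Mcu-/- 5 of 9 were higher (among them Trem2 by 2.94 and Cd68 by 1.91). Another 3 were lower (Lyz2 by 1.34, Adgre1 by 0.79 and Mrc1 by 0.35). Of 4 fibroblast and endothelial markers tested 3 were higher, among them Col1a1 and Col1a2, and 1 was lower, Pecam1. Their part in the results was not tested.

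Ferroportin had the largest rise of a member with at least 5 CPM. Slc40a1 was at 10.5, 11.3, 11, 10.4 and 8.93 CPM in WT zymosan and at 58.3, 61 and 57 CPM in Mcu-/- zymosan, without overlap (log2 difference 2.49 ± 0.57, SE; adjusted p = 0.00104). Slc39a10, a zinc importer of the plasma membrane, was at 5.8 to 8.98 CPM and 22.5 to 23 CPM. Slc30a1, Slc30a4, Slc31a1, Slc39a8, Slc39a14 and Slc48a1 were higher by 0.42, 0.91, 0.41, 0.39, 0.52 and 0.61. Slc11a2 differed by -0.27 ± 0.12 (SE; adjusted p = 0.0507) and was called lower without the untreated Mcu-/- replicate 4 (adjusted p = 1.06e-08). The zinc carrier Slc39a13 was lower by 0.90.

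Around the heavy chain Slc3a2 the light chains parted. Slc3a2 was at 479, 471, 456, 434 and 455 CPM in WT and 878, 906 and 919 CPM in Mcu-/- with zymosan, without overlap (log2 difference 0.97 ± 0.21, SE; adjusted p = 0.000702). Slc7a8 was higher as well, at 603 ± 7.75 CPM (SD, n = 3) against 298 ± 4.89 CPM (SD, n = 5). Slc7a5 was lower, at 92.7, 99 and 101 CPM against 128 to 146 CPM (-0.51 ± 0.06, SE), and so was Slc7a7 at 36.1 ± 2.1 against 68.5 ± 1.28 CPM. The level of Slc7a5 in Mcu-/- with zymosan thus overlapped that of untreated cells of both genotypes (91.8 to 110 CPM). Of the other named carriers of this class the creatine carrier Slc6a8 was higher by 1.51, Slc43a2 by 0.89, Slc38a2 and Slc15a4 by 0.61 each, Slc38a9 by 0.55, and Slc6a6 and Slc36a1 by 0.30 each. Slc1a5 was lower by 0.61 and Slc38a1 by 0.11. Slc15a3 differed by -0.07 ± 0.05 (SE).

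Slc15a2 was close to 0 in Mcu-/- cells. It had 103 to 136 counts in the WT zymosan libraries and 4, 5 and 5 counts in the Mcu-/- ones, a log2 difference of -4.58 ± 0.31 (SE; adjusted p = 1.51e-09). In untreated cells it had 14 to 29 counts in WT and 6, 15, 15 and 3 counts in Mcu-/-. By CPM the untreated groups did not overlap either (0.785 to 1.24 against 0.119 to 0.548 CPM).

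The bicarbonate carriers Slc4a8 and Slc4a3 showed the other deep losses. Slc4a8, a sodium-driven chloride bicarbonate exchanger, had 146 to 201 counts in WT zymosan libraries and 2, 0 and 6 counts in Mcu-/- ones (log2 difference -5.93 ± 0.85, SE; adjusted p = 1.37e-05). Slc4a3, a chloride bicarbonate exchanger, was at 12.3 to 14.6 CPM against 0.696 to 1.47 CPM, and the related Slc4a2 was lower by 0.82. Slc4a7 ran the other way, at 329 ± 6.15 CPM (SD, n = 3) against 171 ± 6.03 CPM (SD, n = 5). The sodium calcium potassium exchangers Slc24a3 and Slc24a5 were higher by 1.51 and 0.77, and the sodium calcium exchanger Slc8a1, chosen after its values were seen, by 1.25. Slc12a9 was lower by 1.51 and Slc20a1 by 0.73.

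Slc13a3, the most abundant member of untreated WT cells, was at 6000, 6000, 5980, 5680 and 5880 CPM in WT zymosan and at 1020, 1030 and 1110 CPM in Mcu-/- zymosan, without overlap (log2 difference -2.49 ± 0.33, SE; adjusted p = 6.91e-06). Slc35g1 was lower by 1.86, the lysosomal carrier Slc46a3 by 1.77 and Slc45a4 by 1.41. Higher were the fatty acid carrier Slc27a1 (43.4 ± 3.73 against 123 ± 2.74 CPM), the organic cation carrier Slc22a4 (3.43 ± 0.655 against 10.0 ± 0.638 CPM), Slc37a2 (93.8 ± 3.39 against 249 ± 6.24 CPM) and Slc44a1 (143 ± 6.02 against 260 ± 4.42 CPM; SD, n = 5 and 3). Slc23a2, the vitamin C carrier, differed by 0.16 ± 0.16 (SE; adjusted p = 0.405) and was called without the untreated Mcu-/- replicate 4 (adjusted p = 6.64e-06).

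**Figure D4:**
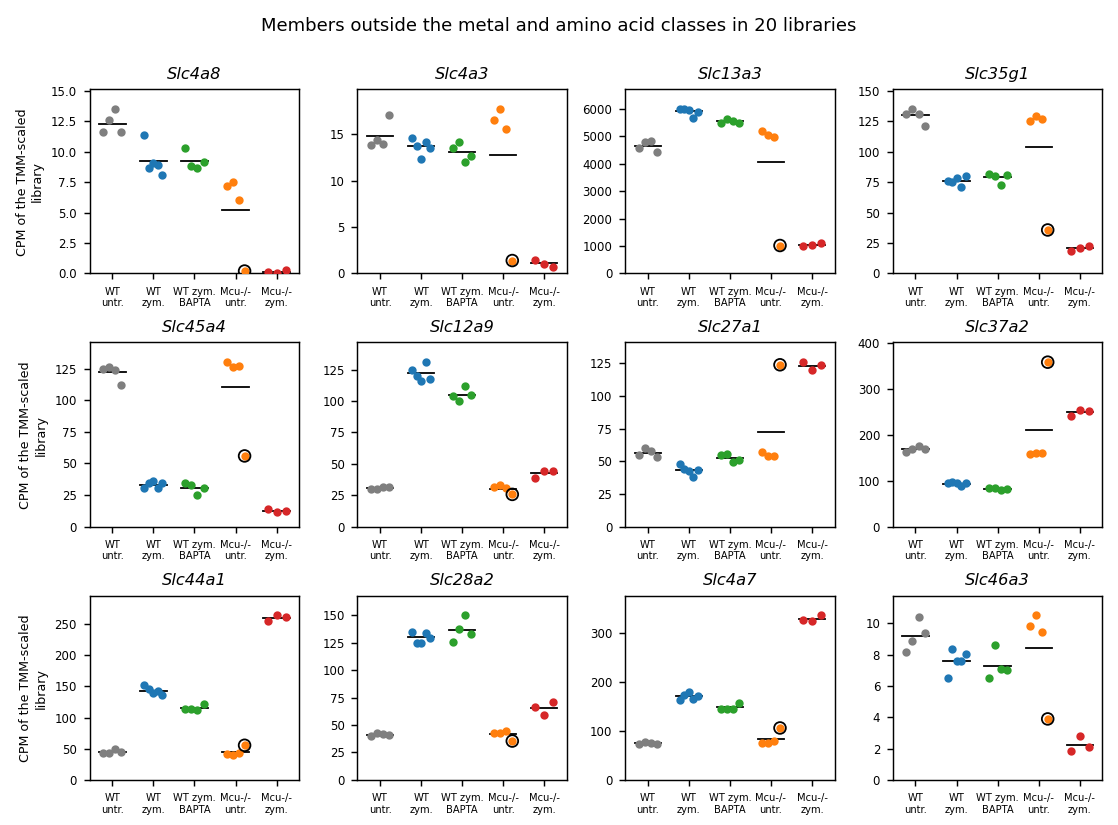
CPM of 12 members outside the metal and amino acid classes in the 20 libraries (1 point each, black lines at group means, circle around the untreated Mcu-/- replicate 4). For Slc13a3, Slc4a3 and Slc4a8 the circled library and the 3 Mcu-/- zymosan libraries form the low end, and for Slc27a1 they form the high end, at 120 to 126 CPM.

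In untreated cells edgeR called 0 members higher and 1 lower in Mcu-/-, Slc15a2 (log2 difference -1.54 ± 0.28, SE; adjusted p = 0.0158), against 0.128% and 0.222% of all genes, and DESeq2 gave the same counts. The libraries of both groups did not overlap for 9 members, against 7.09% of all genes. At an unadjusted p under 0.05 there were 28 of 152 members (18.4%), against 14.9% of all genes. Without replicate 4 there were 1 higher (Slc13a3, by 0.12) and 4 lower (Slc4a8 by 0.84, Slc15a2 by 1.28, Slc39a14 by 0.19 and Slc39a13 by 0.16), against 1.53% and 1.83% of all genes. Of these Slc4a8 was at 5.99 to 7.54 CPM in Mcu-/- replicates 1 to 3 and at 11.6 to 13.5 CPM in WT, and 0.198 CPM in replicate 4.

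Replicate 4 of untreated Mcu-/- carried, without zymosan, most of the differences that separated the zymosan-treated genotypes. Of the 102 members called in that comparison, its level lay on the same side of the untreated WT mean for 92 (90.2%), with a median size of 0.53 on the log2 scale, where replicates 1, 2 and 3 shared the side for 50, 51 and 56 members, with median sizes of 0.09, 0.08 and 0.08. Over all 7272 genes called the share was 86.7% for replicate 4 and 49.9% to 50.8% for the others. Slc13a3 was at 1020 CPM in it and at 4960 to 5180 CPM in replicates 1 to 3, Slc40a1 at 92.5 CPM and 8.1 to 9.14 CPM, Slc27a1 at 124 CPM and 54.2 to 57 CPM, and Slc3a2 at 510 CPM and 195 to 206 CPM. Members with large rises under zymosan in WT and small differences between the zymosan-treated genotypes varied in it. Slc23a2 was at 230 CPM against 111 to 118 CPM in the other replicates and Slc11a2 at 161 against 96.5 to 105 CPM, while Slc38a1 was at 84.8 against 88.5 to 90.3 CPM and Slc15a3 at 606 against 529 to 546 CPM. Markers moved both ways in the same library. Lyz2 was at 2820 CPM against 7820 to 8390 CPM, and Adgre1, Cd14 and Mrc1 were lower too. Cd68 was at 971 against 251 to 259 CPM, and Csf1r, Mertk, Fcgr1 and Trem2 were higher too. Col1a1 was at 13 against 0.329 to 0.604 CPM, with Col1a2 and Cdh5 higher, while Pecam1 was at 17.3 against 48.9 to 51.2 CPM. The summed fibroblast and endothelial markers were at 48.3 against 50.9 to 54.3 CPM. The cause was not tested.

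**Figure D5:**
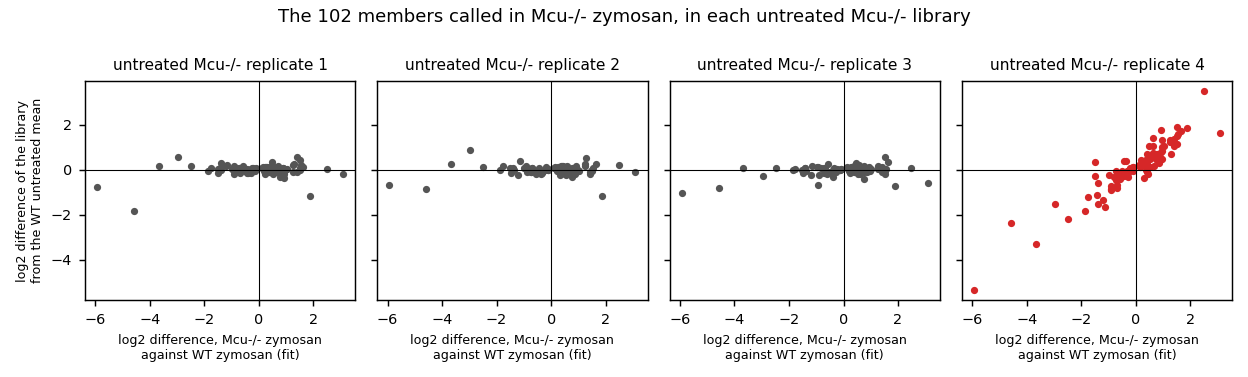
Each point is 1 of the 102 members called between Mcu-/- and WT with zymosan. The horizontal axis is the fitted log2 difference of that comparison and the vertical axis the log2 difference of 1 untreated Mcu-/- library from the untreated WT mean (0.1 CPM added to both). In replicates 1 to 3 most points lie near 0. Well below it lie Slc15a2, Slc4a8 and the low Slc45a3, of which Slc45a3 was higher in Mcu-/- with zymosan. In replicate 4 the points run from lower left to upper right, with 92 of 102 on the same side.

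The difference of the zymosan response between genotypes was tested by itself. It was positive for 24 members and negative for 32, against 15.2% and 20% of all genes. Of 26 metal carriers 6 were positive and 4 negative. Without the untreated Mcu-/- replicate 4 the counts over members were 62 and 39, against 31% and 29.3%. Those of the 26 metal carriers were then 17 and 4. The most negative differences with replicate 4 were those of Slc4a8 (-4.70 ± 1.04, SE), Slc4a3 (-3.47 ± 0.69), Slc15a2 (-3.04 ± 0.46) and Slc13a3 (-2.28 ± 0.43), and the most positive ones those of Slc27a1 (1.16 ± 0.27), Slc37a2 (1.10 ± 0.26), Slc24a5 (0.88 ± 0.27) and Slc44a1 (0.87 ± 0.11). For Slc4a8, Slc4a3, Slc13a3 and Slc27a1 the difference comes mostly from untreated Mcu-/- replicates 1 to 3, since replicate 4 already stood near the Mcu-/- zymosan level. Slc37a2 fell with zymosan in WT, and in Mcu-/- its direction depends on the untreated libraries taken. Its 241 to 253 CPM in Mcu-/- with zymosan lay above the 159 to 161 CPM of untreated replicates 1 to 3. They lay below the 358 CPM of untreated replicate 4. Slc12a9 responded less in Mcu-/- (-1.49 ± 0.10), as did Slc7a5 (-0.43 ± 0.08), and Slc30a1 and Slc4a7 responded more (0.34 ± 0.10 and 0.79 ± 0.11).

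Calcium chelation during zymosan exposure was the last comparison, with fewer calls. With BAPTA-AM 7 of 152 were higher and 12 lower than with zymosan alone, against 6.43% and 6.33% of all genes. This count rests on the spread that the untreated Mcu-/- replicate 4 adds: without it 26 members were higher and 25 lower, against 15.3% and 16.5% of all genes. With library totals 18 were higher and 6 lower, against 13.4% and 4.48% of all genes. Slc7a5 was at 188, 211, 198 and 205 CPM with BAPTA-AM and at 138, 142, 146, 128 and 139 CPM without it, with no overlap (log2 difference 0.53 ± 0.05, SE; adjusted p = 2.37e-06). The phosphate carriers Slc20a1 and Slc20a2 were higher by 0.28 and 0.42, the Golgi proton exchanger Slc9a8 by 0.30 and the zinc importer Slc39a6 by 0.26. The remaining 2, Slc30a5 (0.21) and the low Slc5a6 (1.14 against 2.01 CPM), were chosen after their values were seen.

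Among the members that were lower with the chelator, Slc10a7, a bile acid carrier homologue, was at 14.2, 15.8, 15.6, 16.6 and 15.5 CPM without it and at 10.5, 9.71, 11.9 and 8.75 CPM with it (log2 difference -0.61 ± 0.13, SE; adjusted p = 0.00425). Slc7a7 was lower by 0.42, Slc39a14 by 0.39, Slc44a1 by 0.31, Slc39a1 by 0.28, Slc39a8 by 0.23 and Slc12a9 by 0.21. Slc39a14, Slc44a1, Slc39a1, Slc7a7 and Slc12a9 had each risen with zymosan, and their levels with BAPTA-AM stayed above those of untreated WT, at 51.8, 115, 164, 51.3 and 105 CPM against 43.8, 45.3, 99.5, 43.2 and 30.9 CPM. Several members with large responses to zymosan were not called with the chelator. Slc38a1 was at 402 ± 9.18 CPM (0.09 ± 0.04, SE), Slc23a2 at 563 ± 13 CPM (-0.05 ± 0.14), Slc11a2 at 354 ± 14.1 CPM (0.10 ± 0.11), Slc30a1 at 272 ± 17.2 CPM (0.12 ± 0.06) and Slc36a1 at 8.66 ± 0.842 CPM (0.07 ± 0.10). Of these Slc38a1, Slc11a2 and Slc30a1 were called higher without the untreated Mcu-/- replicate 4. With all libraries 0 of 20 Slc35 members were called, against 12.8% of all genes. Without that library 2 were higher and 0 lower, against 15.3% and 16.5% of all genes.

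Of the members called both between the genotypes with zymosan and with the chelator, 14 in all, the log2 differences are given side by side, Mcu-/- first. Both comparisons share the WT zymosan libraries. They were -0.51 and 0.53 for Slc7a5, -0.73 and 0.28 for Slc20a1, -0.12 and 0.30 for Slc9a8, 0.52 and -0.39 for Slc39a14, 0.39 and -0.23 for Slc39a8, 0.86 and -0.31 for Slc44a1 and 0.60 and -0.61 for Slc10a7. For the other members they were -0.92 and -0.42 for Slc7a7, -1.51 and -0.21 for Slc12a9, -0.13 and -0.16 for Slc12a4, -0.24 and -0.13 for Slc12a7, -1.40 and -1.08 for the low Slc9a5, 0.38 and 0.21 for Slc30a5 and 0.24 and 0.26 for Slc39a6. The difference between these differences was not tested. The overlap was 14 of the 19 members called with the chelator, where 67.1% of members and 62.1% of all genes were called between the genotypes with zymosan. The same overlap over all genes was not counted, so the 14 are not read as a shared set.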

How the data were processed

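RNA of BMDM pellets was sequenced by a service provider. Per the study, the authors checked reads with FastQC and MultiQC, trimmed them with cutadapt, aligned them to mm10 with STAR and counted reads per gene with HTSeq. The deposited table holds raw counts per gene and library, with no normalization, and the authors compared groups with DESeq2. Versions are not given in the sources used here.

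From these counts edgeR 4.0.16 (R 4.3.3) was used: TMM scaling, filterByExpr (11707 genes) and a quasi-likelihood test on all 20 libraries in 5 groups, with p-values adjusted by Benjamini-Hochberg over all genes and a threshold of 0.05. The contrasts were zymosan in WT, Mcu-/- against WT with and without zymosan, BAPTA-AM with zymosan, and the difference of the zymosan responses. CPM are per TMM-scaled library. The total counts of 14.42 to 23.95 M per library limit precision mainly for members near 10 counts. The edgeR step was tested on simulated data with known changes.

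The members and lists were chosen with earlier results of these data known. Named members were a list of carriers with known roles plus, per contrast, those with the largest called differences at 5 CPM or more; other members named were chosen after their values were seen. Slc4a1ap and Slc7a6os were set apart as not carriers after the table was seen. Promoters were those of RefSeq (GRCm38.p6), 1 window a gene. Alternatives were DESeq2 1.42.0, its size factors, library totals (chosen after seeing the data), other filters, each group pair alone, a replicate block and leaving out each library. Replicate numbers did not pair the samples: the correlations of same-numbered deviations were -0.0549 to 0.0614. Where the libraries of a group come from separate mice is not stated beyond the label of biological replicate, so p-values measure the spread between these libraries. One member is counted in the totals and not reported by itself here.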

Additional observations from a re-analysis of the deposited data

Results flagged for a closer look

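In the untreated Mcu-/- group replicate 4 stood apart from the other 3 libraries. The value given is the gap of the library to the nearest other one as a share of the range of its group, where Dixon's limit is 0.829 for 4 libraries and 0.710 for 5, and chance flags about 1 in 20 groups. Replicate 4 was the highest library, with these shares: Slc10a7 0.958, Slc11a2 0.87, Slc15a4 0.959, Slc22a4 0.939, Slc23a2 0.941, Slc24a5 0.915, Slc27a1 0.96, Slc30a4 0.883, Slc31a1 0.955, Slc31a2 0.856, Slc35c1 0.881, Slc37a2 0.994, Slc38a2 0.924, Slc38a9 0.867, Slc39a10 0.907, Slc39a14 0.966, Slc3a2 0.966, Slc40a1 0.988, Slc48a1 0.956, Slc4a7 0.852, Slc6a8 0.933, Slc7a8 0.954. It was the lowest for Slc13a3 0.948, Slc35g1 0.96, Slc45a4 0.957, Slc46a3 0.843, Slc4a3 0.868, Slc7a7 0.915.

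Outside that group, Slc35c1 had a share of 0.888 for replicate 3 of untreated WT, Slc35g1 had a share of 0.836 for replicate 3 of WT with zymosan and BAPTA-AM, Slc36a1 had a share of 0.849 for replicate 1 of untreated WT, Slc37a2 had a share of 0.732 for replicate 4 of WT with zymosan, Slc44a1 had a share of 0.881 for replicate 4 of WT with zymosan and BAPTA-AM, Slc45a4 had a share of 0.847 for replicate 4 of untreated WT, Slc4a7 had a share of 0.947 for replicate 4 of WT with zymosan and BAPTA-AM.

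The zymosan response differed between the genotypes, by the test of the difference itself, in these members among those named for it (log2, Mcu-/- minus WT): Slc27a1 1.16, Slc37a2 1.10, Slc24a5 0.88, Slc44a1 0.87, Slc4a8 -4.70, Slc4a3 -3.47, Slc15a2 -3.04, Slc13a3 -2.28. Each was called with all libraries and without the untreated Mcu-/- replicate 4. That library already stood near the Mcu-/- zymosan level for Slc13a3 (1020 CPM), Slc4a3 (1.39 CPM), Slc4a8 (5 counts) and Slc27a1 (124 CPM). Leaving it out is thus no separate check of these differences, which come mostly from the other untreated Mcu-/- libraries.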

How the results depend on the processing

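With library totals in place of TMM, zymosan in WT gave 23 members higher and 97 lower, against 15.7% and 68.5% of all genes. BAPTA-AM gave 18 higher and 6 lower, against 13.4% and 4.48%. The log2 difference with zymosan then turned for Slc15a4 (-0.46), Slc1a5 (-0.02), Slc20a1 (-0.25), Slc39a8 (-0.44), Slc6a6 (-0.47), Slc7a5 (-0.02) and Slc7a8 (-0.35), as the median of all genes moved to -0.54. With each pair of groups fitted alone, BAPTA-AM gave 25 higher and 24 lower, and untreated Mcu-/- 0 lower. Leaving out 1 library at a time, the counts with BAPTA-AM ran from 5 to 26 higher and from 4 to 25 lower. Both maxima were without the untreated Mcu-/- replicate 4, where 15.3% and 16.5% of all genes were called. The lower count was 7 without WT zymosan replicate 1, and 6, 7 and 4 without BAPTA-AM replicates 2, 3 and 4. For untreated Mcu-/- they ran from 0 to 1 higher (1 without its replicate 2 or 4) and from 0 to 4 lower (0 without untreated WT replicate 1 or 2, 4 without Mcu-/- replicate 4), and for the difference of responses from 18 to 62 positive and 26 to 39 negative. Without that replicate 4 the untreated difference turned for Slc13a3 (0.12) and Slc39a14 (-0.19), and over all libraries left out in turn these ran from -0.34 to 0.12 and from -0.19 to 0.11. For the counts in WT with zymosan the range was 43 to 54 higher and 51 to 65 lower, and for Mcu-/- with zymosan 51 to 67 and 34 to 47. The causes were not tested. For the pairs fitted alone and for the other libraries left out, the shares over all genes are not given. Those counts thus show only how the calls of members move, not whether members differ from other genes.

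A replicate block, possible for the 17 libraries with label numbers, gave 41 higher and 51 lower with zymosan in WT, 6 higher and 6 lower with BAPTA-AM and 0 lower in untreated Mcu-/-. The numbers do not pair the samples, and the shares over all genes with this block are not given. Low counts limit what could be seen for the 7 members with a mean under 10 counts.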

Other observations

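Beside the carriers stood 19 tested genes that bind, store or regulate metals. With zymosan in WT 12 of them rose and 3 fell (median log2 difference 0.34, against -0.04 over all genes, of which 32.4% rose and 36.8% fell). The metallothioneins Mt1 and Mt2, which bind zinc and copper, rose from 96.9 ± 3.37 to 281 ± 21 CPM and from 27.1 ± 2.69 to 184 ± 16.2 CPM (SD, n = 4 and 5), and both were lower with BAPTA-AM, by 0.44 and 0.79 on the log2 scale. The heme oxygenase Hmox1 rose from 425 to 1180 CPM and the ferritin chain Fth1 from 7800 to 12600 CPM. In Mcu-/- with zymosan 8 of the 19 were higher than in WT and 4 lower, where 31.8% of all genes were higher and 30.3% lower. Hmox1 was at 2310 ± 35.2 CPM and Fth1 at 20500 ± 459 CPM (SD, n = 3), while Cp, a ferroxidase that works with ferroportin, was at 99.5 ± 1.51 CPM against 415 ± 5.28 CPM in WT.

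Of 26 ATP-driven ABC transporters tested 5 rose and 12 fell with zymosan in WT (median -0.23), against 32.4% and 36.8% of all genes. In Mcu-/- with zymosan 10 were higher and 10 lower, against 31.8% and 30.3%. Without the untreated Mcu-/- replicate 4 the counts were 5 and 16 (all genes 37.2% and 41.3%) and 10 and 11 (36.4% and 33.7%). The cholesterol exporters Abca1 and Abcg1 fell from 505 to 299 CPM and from 147 to 100 CPM, and were at 210 and 56.8 CPM in Mcu-/- with zymosan. Among 27 carriers with other symbols 13 rose and 9 fell with zymosan in WT, and of the 9 Slc genes left out by name 8 rose and 1 fell. Both stand against the same 32.4% and 36.8% of all genes. With BAPTA-AM the calls were 2 higher and 4 lower of the ABC transporters, 1 and 0 of the carriers with other symbols, 2 and 1 of the genes left out and 2 and 2 of the metal-handling genes, against 6.43% and 6.33% of all genes. Without the untreated Mcu-/- replicate 4 they were 2 and 8, 5 and 1, 4 and 3, and 3 and 7, against 15.3% and 16.5%.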
